A study of Mus musculus with 6 samples.

Results

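Cyclin-dependent kinase inhibitors and the cyclin G genes were followed here in uterine luminal epithelium of mice with a conditional deletion of the BMP receptor gene Alk3. The set held 10 genes: Cdkn1a, Cdkn1b and Cdkn1c of the Cip/Kip family, Cdkn2a, Cdkn2b, Cdkn2c and Cdkn2d of the INK4 family, the phosphatase gene Cdkn3, and Ccng1 and Ccng2. Every probe whose symbol on the array was one of these names was taken, which gave 20 of 45281 probes, for 10 of 28891 named genes. Ccng2 was chosen by its signal on these arrays, since an earlier look at CKO against Control placed it among the lower genes with the smallest p, so its difference is described below without a test. The other members were taken by family.

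RNA from 3 CKO and 3 Control samples was hybridised to 6 arrays of 1 Illumina bead chip, 1 array each. The CKO mice were Alk3 flox/flox Pgr cre/+ females, in which Cre from the progesterone receptor locus deletes a floxed exon of Alk3 (Bmpr1a) that encodes part of the extracellular domain. Cre from this locus acts in every cell that expresses Pgr, in the uterus also outside the epithelium, and the CKO mice carry the knock-in at Pgr itself. The Control mice are labelled only as control, so whether they carried floxed alleles or Cre is not known here. All mice shared a mixed C57BL/6J and 129S5/SvEvBrd background and were sampled at 3.5 days post coitum, and their ages are not given. The CKO arrays are called D, E and F and the Control arrays A, B and C. These letters are also places on the chip, so chip place and genotype cannot be told apart. The labels call the samples isolated luminal epithelium without saying how it was isolated, and describe RNA extraction from frozen uterine tissue. Nothing in the labels ties an array to an animal of its own, and p-values therefore cover only the spread among these samples, part of which may be technical.

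Cyclin-dependent kinase inhibitors hold back the kinases that drive cells from growth into DNA replication. The Cip/Kip proteins bind complexes of cyclins with their kinases, and the INK4 proteins bind the kinases that partner D-type cyclins. Cdkn3 encodes a phosphatase that removes an activating phosphate from CDK2, shown for the human protein. The cyclin G proteins are atypical cyclins: Ccng1 is a target of p53, Ccng2 is a target of FOXO factors, and both proteins bind subunits of the phosphatase PP2A. In the mouse uterus, progesterone stops division of the luminal epithelium before the embryo attaches.

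The deleted gene and the markers of the tissue were checked first. By its brighter probe, Bmpr1a averaged 8.60 ± 0.31 on the normalised log2 scale for CKO, against 9.19 ± 0.20 for Control (SD, n = 3 each). The groups did not overlap by this probe, and an exact two-sided permutation test gave p = 0.1, which is as low as 3 against 3 can reach. By its other probe they overlapped (exact permutation p = 0.3). The positions of these probes relative to the deleted stretch are not known, so they need not report the deletion. Of 9 pan-epithelial markers 8 were above background on at least 3 arrays, and Epcam on none. Of 9 luminal markers 7 were, and Calb1 and Krt13 were on none. CKO array E stood apart, with a mean correlation of 0.936 with the other arrays against 0.953 to 0.970 for the rest. The median raw signal ran from 79.7 to 82.1 on CKO arrays and from 82.4 to 87.6 on Control arrays.

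The 250 bases before the annotated start of Ccng2 and of Cdkn1b are printed because these were the measured members whose groups did not overlap. Both are from RefSeq (GRCm38.p6), on the plus strand, at chr5:93267323-93267572 for Ccng2 and chr6:134920151-134920400 for Cdkn1b. Capitals mark exact matches to a motif, 5′ to 3′.
Ccng2: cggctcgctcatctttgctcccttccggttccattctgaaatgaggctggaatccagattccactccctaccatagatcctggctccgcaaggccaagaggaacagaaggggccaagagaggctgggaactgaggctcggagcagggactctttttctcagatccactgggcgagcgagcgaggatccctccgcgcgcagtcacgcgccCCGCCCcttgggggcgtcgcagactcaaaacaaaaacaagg
Cdkn1b: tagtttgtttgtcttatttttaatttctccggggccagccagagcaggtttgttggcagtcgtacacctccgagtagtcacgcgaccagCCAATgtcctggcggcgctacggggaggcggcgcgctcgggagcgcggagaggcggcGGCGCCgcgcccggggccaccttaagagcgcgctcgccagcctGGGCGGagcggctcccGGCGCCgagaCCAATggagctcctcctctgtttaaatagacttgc
Searched on both strands, and with no overlap between matches in these windows, were GTAAACA (bound by FOXO factors), GGCGCC (bound by BMP-activated SMADs), GGGCGG (the GC box), CCAAT (bound by NF-Y), TTTCCCGC (an E2F motif) and TTTGAA (the CHR motif of cell cycle genes). Ccng2 held 1 GC box, read on the minus strand. Cdkn1b held 2 copies of GGCGCC, the first base of each lying 104 and 45 bases before the start, with 1 GC box and 2 copies of CCAAT. Of 32851 such windows of other genes and the members, 9.59% held GGCGCC, 32.7% the GC box and 33.8% CCAAT. The FOXO motif was in 3.17% of windows, the E2F motif in 0.895% and the CHR in 16%, and none of these was in either printed window. The motif bound by BMP-activated SMADs was not particular to Cdkn1b among the members. A window of Cdkn2c and a window of Cdkn2a, not printed, held 1 copy each. By its brighter probe Cdkn2c differed by only -0.09 on the log2 scale, with overlapping groups, and Cdkn2a was not measured. A match is only a run of letters and does not show binding.

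Of the 20 probes, 13 were above background (detection p under 0.05) on at least 3 of the 6 arrays, and 11 of them on all 6. They measured 9 of the 10 genes. Cdkn2a, whose locus encodes the tumour suppressors p16Ink4a and p19Arf, was not measured: 2 of its 3 probes were below background on every array, and the third was above it on Control array A alone, with a raw signal of 104.6 against 59.1 to 71.2 on CKO arrays. Single probes below background on all arrays belonged also to Cdkn3, and 2 to Cdkn1b, while the dimmest Cdkn1a probe was above background on CKO array E alone. In bulk samples such as these, fewer cells of a type and less RNA per cell cannot be told apart.

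Ccng2, measured by 1 probe, had a normalised log2 signal of 7.60, 7.45 and 7.84 on CKO arrays D, E and F, and of 8.85, 8.74 and 8.57 on Control arrays A, B and C. Every CKO array lay below every Control array, with a gap between the groups wider than the range inside either. CKO averaged 7.63 ± 0.20 and Control 8.72 ± 0.14 (SD, n = 3 each), a log2 difference of -1.09 (SE 0.18), or 0.470 times the Control signal. The scanner's own values showed the same order before any correction: raw signals were 231.3, 239.4 and 274.6 in CKO and 564.3, 525.1 and 431.4 in Control. The standard error over beads was 3.82% to 5.97% of the signal in CKO and 4.57% to 5.61% in Control. The spread inside the groups was unremarkable: 27.7% of genes had a smaller SD in CKO and 28.4% a smaller SD in Control. With any 1 array left out the difference ran from -1.19 without F to -0.997 without E, and under the other processing from -1.17 to -0.90. The gene was chosen for a small p on these same arrays, which favours a steady difference, so these ranges are no support for it.

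**Figure D1:**
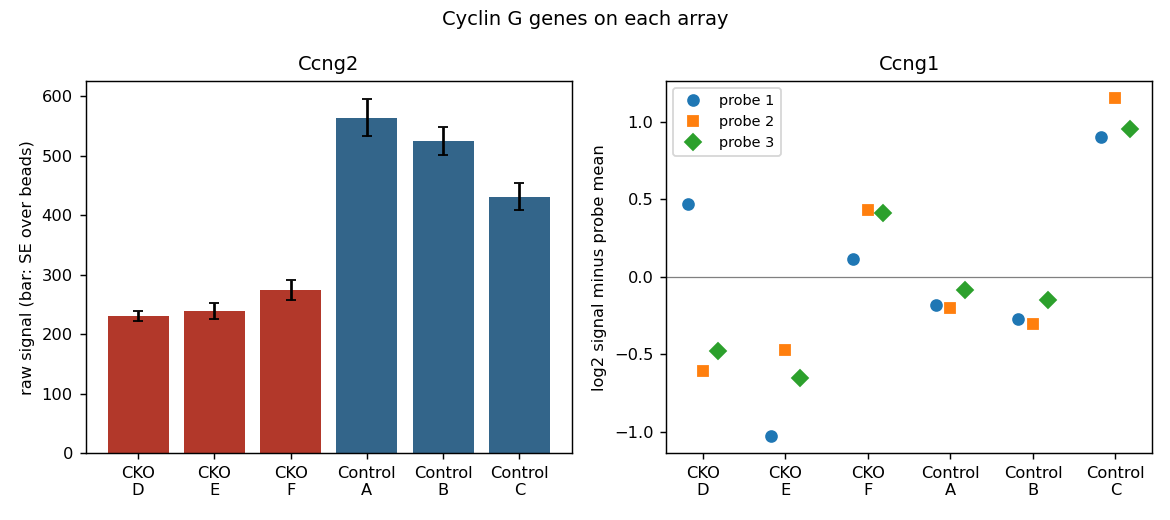
Left, raw bead-averaged signal of Ccng2 on each array, with bars for the SE over beads; the 3 CKO arrays read 231.3 to 274.6 and the 3 Control arrays 431.4 to 564.3. Right, log2 signal of the 3 Ccng1 probes on each array minus that probe's mean; all are highest on Control array C, and probe 1, the brightest, departs from the other two on CKO array D.

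Ccng1 did not follow Ccng2. Its brightest probe read 12.42, 10.92 and 12.07 on CKO arrays D, E and F, against 11.77, 11.68 and 12.85 on Control arrays A, B and C, on the log2 scale. The groups overlapped, with the lowest value on E and the highest on C. The log2 difference was -0.29 (SE 0.48, adjusted p 0.977), and it turned to 0.15 without E, 0.08 without C and 0.15 with array weights. The other probes differed by -0.43 (SE 0.46) and -0.48 (SE 0.40), and these came to 0.036 and -0.12 when C was left out. Those dimmer probes tracked each other closely over the 6 arrays (Pearson r 0.975), and the brightest correlated with them at 0.631 and 0.714. The disagreement lay on array D, where the brightest probe was 0.47 above its mean over the arrays and the pair of dimmer ones were on their low side.

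Cdkn1b, encoding p27Kip1, was the other measured gene whose groups did not overlap. Its log2 signal was 5.08, 5.345 and 5.56 on CKO arrays D, E and F, and 5.66, 5.99 and 6.26 on Control arrays A, B and C. The highest CKO array, F, came close to the lowest Control array, A. CKO averaged 5.33 ± 0.24 against 5.97 ± 0.30 for Control (SD, n = 3 each). The log2 difference of -0.64, with a 95% confidence interval of -1.18 to -0.11, did not pass (limma adjusted p 0.976). The probe was dim, with raw signals of 89.8 to 102.5 in CKO and 117.1 to 134.0 in Control, and CKO array D was just above background (detection p 0.0492). The difference was -0.30 with no background correction and -0.32 with normexp without controls, while its sign was the same under all 15 alternatives in which the probe was tested.

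Cdkn1a and Cdkn1c complete the Cip/Kip family. Cdkn1a encodes p21, a p53 target, and its brightest probe read 6.69, 6.87 and 6.48 on CKO arrays D, E and F, against 5.92, 6.05 and 7.14 on Control arrays A, B and C. The CKO arrays fell inside the Control range, since C was high and A and B were low. It was the only measured member with a difference above 0 (0.31, SE 0.34, adjusted p 0.977). That value was 0.08 without A and 0.70 without C, and the second probe differed by 0.06 (SE 0.35). Cdkn1c, the imprinted gene for p57Kip2, had raw signals of 7932.0 to 9293.2 in CKO and 8506.8 to 14099.4 in Control. On the log2 scale it read 13.13, 13.18 and 13.05 on D, E and F, and 13.65, 13.29 and 13.08 on A, B and C. The CKO arrays sat together, with an SD of 0.065 that only 4.06% of genes undercut, and Control array C lay among them. The difference was -0.22 (SE 0.20, adjusted p 0.976), and -0.06 without A.

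The INK4 genes overlapped between the groups. Cdkn2b, encoding p15Ink4b, a known target of TGF-beta signalling in epithelial cells, read 5.86, 7.03 and 5.63 on D, E and F, and 7.45, 6.08 and 5.34 on A, B and C. It was high on 1 array of each group, E and A, and its Control SD of 1.07 exceeded that of 97.2% of genes. Its dimmer arrays lay near background, with raw signals of 99.7 on C (detection p 0.0214), 104.9 on F and 111 on D. The difference of -0.12 (SE 0.60, adjusted p 0.983) turned to 0.46 without A, 0.04 without D and 0.15 without F. The mean deviations of 3 marker lists were above 0 on the same arrays, though their genes did not all go that way. The mean deviation of the 7 measured luminal markers of 9 was -0.45, 0.54 and -0.33 on D, E and F, and 0.49, 0.31 and -0.56 on A, B and C. On E, Lpar3 and Ltf of these were at their lowest of all arrays, and the rest lay above their own means. Glandular markers, 6 of 8 measured, gave -0.53, 0.71 and -0.39 in CKO and 0.21, 0.40 and -0.39 in Control. On A only Spink1 and Prss29 of the 6 lay above their own means. Smooth muscle markers, 3 of 7 measured, gave 0.31, 0.66 and -0.93 in CKO and 0.64, -0.12 and -0.56 in Control, and on A only Acta2 of the 3 lay above its own mean. Summed linear signals were 12024 to 19692 in CKO and 13787 to 20268 in Control for luminal markers, and 192.2 to 928.8 in CKO and 225.1 to 2111 in Control for smooth muscle markers. Myh11, Cnn1 and Tagln of smooth muscle were above background on no array. The part of these cells in the Cdkn2b values was not tested.

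Cdkn2c, encoding p18Ink4c, was measured by a pair of probes that differed. The brighter read 6.30, 6.19 and 6.34 in CKO and 6.11, 6.47 and 6.52 in Control, a difference of -0.09 (SE 0.18, adjusted p 0.977). The dimmer, above background on 1 CKO and 2 Control arrays, differed by -0.52 (SE 0.21, adjusted p 0.985 over all probes), with overlapping groups. Over the 6 arrays these probes correlated at 0.180, so they did not report the same pattern. Cdkn2d, encoding p19Ink4d, had group means that nearly coincided, 7.15 ± 0.45 for CKO and 7.15 ± 0.12 for Control (SD, n = 3 each). Its values were 7.16, 6.69 and 7.59 on D, E and F, and 7.02, 7.18 and 7.25 on A, B and C, so the CKO arrays lay on both sides of Control. The 95% confidence interval of its difference, -0.61 to 0.61, leaves room for changes of either sign.

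Cdkn3 read 4.96, 4.62 and 5.76 on D, E and F, against 4.53, 6.35 and 6.82 on A, B and C. It was above background on F, B and C only, and Control array A was the lowest of all 6. The difference was -0.79 (SE 0.62, adjusted p 0.976), and -1.48 without A. Both Cdkn3 probes carry accessions of predicted transcripts in the array's annotation, which could not be matched by accession here. Around its own mean, Cdkn3 deviated by -0.55, -0.89 and 0.25 on D, E and F, and by -0.97, 0.85 and 1.31 on A, B and C. The mean deviation of 14 measured proliferation genes was -0.22, 0.27 and 0.14 on D, E and F, and -0.39, 0.14 and 0.06 on A, B and C. The signs were the same on every array but E, and both were lowest on A.

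**Figure D2:**
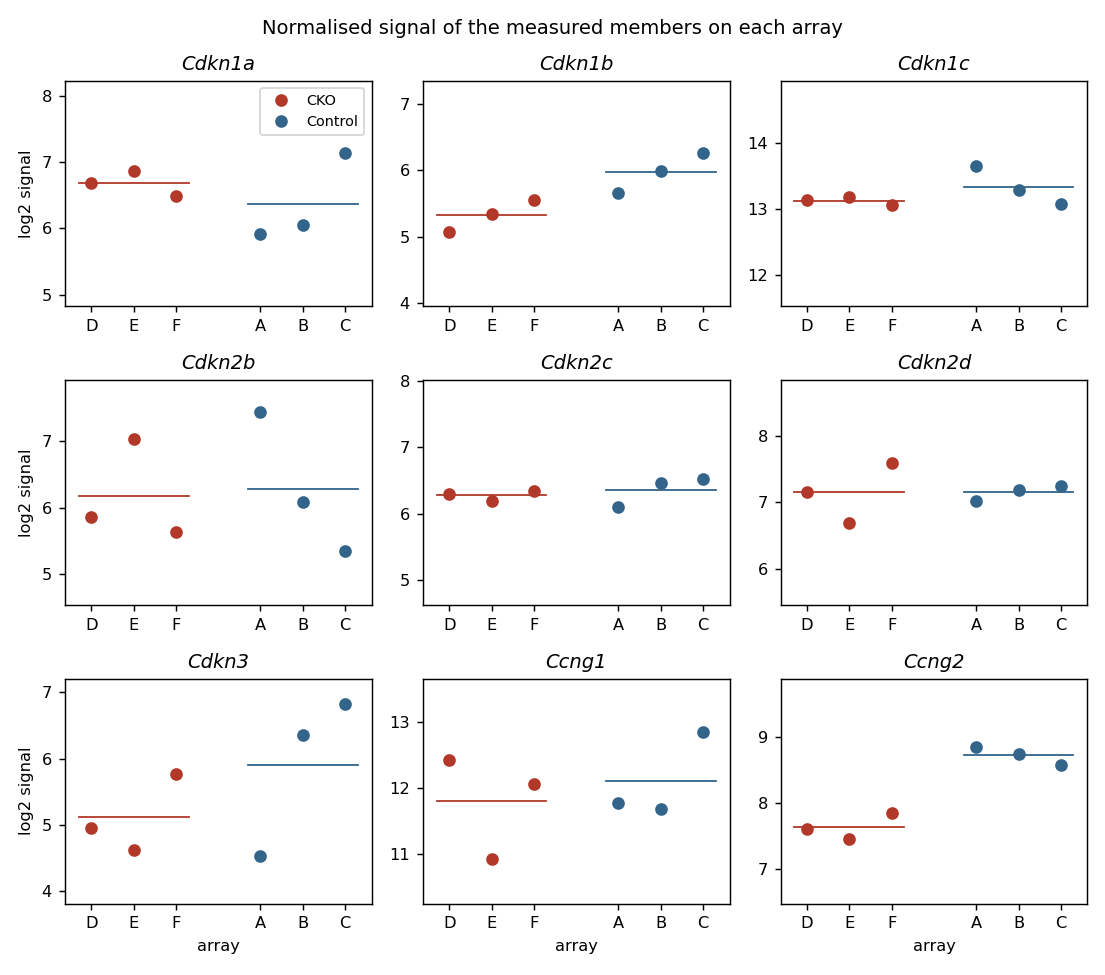
Normalised log2 signal (y axis, each panel spanning the same number of log2 units) of the brightest probe of the 9 measured genes on each array (x axis), with CKO arrays D to F left, Control arrays A to C right and lines for group means. Ccng2 and Cdkn1b show no overlap between the groups; Cdkn2b, Cdkn3 and Ccng1 spread widely inside both.

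As a set, 8 of the 9 measured genes had a difference below 0 and 1 above it, with a median of -0.22 against -0.01 over all 11940 genes tested, of which 51.7% were below 0. Since Ccng2 was chosen for its difference, the other 8 are given apart: 7 were below 0, with a median of -0.17. By limma 0 of these 8 passed, with adjusted p-values from 0.976 upward, and 1, Cdkn1b, had an unadjusted p under 0.05, against 4.72% of all genes. Over all genes 0.0168% passed, all higher in CKO, and 0% passed lower. Over all 17291 probes fitted, 0.0174% passed, also only higher. Non-overlapping groups with CKO lower were found for 1 of these 8, against 5.01% of all genes, and with CKO higher for 0 of the 8, against 5.64%. By probe, 11 of 13 lay below 0, Ccng2 included, against 52.5% of all probes. Their groups did not overlap for 2, those of Ccng2 and Cdkn1b, both lower in CKO. Over all probes the shares were 4.94% lower, 5.4% higher and 10.3% in all. The Ccng2 probe falls in both of these counts through the choice of the gene by its difference. The count of 8 genes below 0 was 6 without E, 6 without C and 7 without any 1 of the other arrays. The members that changed sign were Ccng1, Cdkn2b and Cdkn2d. Of the members other than Ccng2, none passed under any alternative that tested it, which was 16 for most, 15 for Cdkn1b and Cdkn2b and 12 for Cdkn3.

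**Figure D3:**
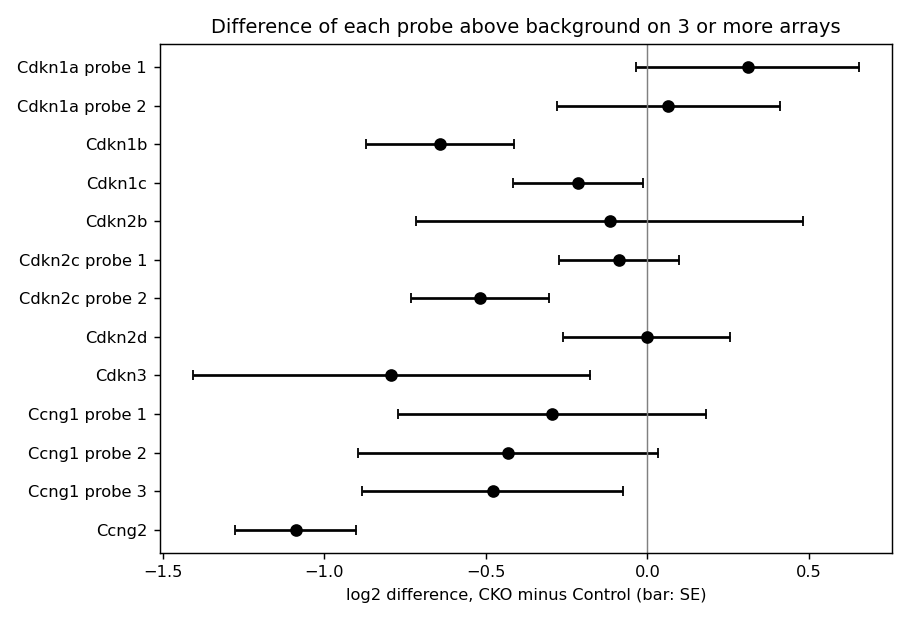
Log2 difference, CKO minus Control, of the 13 member probes above background on at least 3 arrays, with bars for the SE from the fit over all probes. Values run from -1.09 for Ccng2 to 0.31 for the brightest Cdkn1a probe, and 11 of 13 lie below 0.

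The members did not vary together over the 6 arrays. Pearson correlations, given as descriptions over arrays that share a chip and a normalisation, were 0.775 between Ccng2 and Cdkn1b, 0.253 between Ccng2 and Ccng1, and -0.522 between Ccng2 and Cdkn1a. Ccng2 was chosen for its group difference and the Cdkn1b groups did not overlap, so the value of 0.775 partly restates the gap between groups. Over A, B and C, Ccng2 fell (8.85, 8.74 and 8.57) while Cdkn1b rose (5.66, 5.99 and 6.26). Among CKO arrays both were highest on F. Cdkn3 and Cdkn2c correlated at 0.964, and Cdkn2b was opposed to both, at -0.794 and -0.870. For Cdkn2c this is the brighter probe alone, which correlated with the dimmer at 0.180. Cdkn3 was above background on F, B and C only. Of genes outside the set, those most like Ccng2 were Tmbim4 (r 0.997), Lamtor1 (0.992), Zfp972 (0.988), Cytip (0.987) and Cenpq (0.986). Their own differences were unequal in size, from -0.26 for Lamtor1 to -2.12 for Cytip. Those most opposed were Zfp36 (r -0.995), which encodes a protein that speeds mRNA decay, Morn4 (-0.995), Exosc1 (-0.989), Mynn (-0.988) and Eloc (-0.983), each higher in CKO by 0.26 to 0.63. Most like Cdkn1b were Lxn (0.990), Tm2d2 (0.988) and Hnf4a (0.982), and most opposed Fasn (-0.993), Ttc19 (-0.982) and Aldh18a1 (-0.980). These genes are the extremes of a search over the tested genes on 6 arrays, which alone can give correlations this high. Ccng2 was chosen for its difference between the groups, so genes ranked by likeness to it share or mirror that difference through selection.

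Around the members, 8 lists of partner and pathway genes held 131 genes, of which 103 were measured. By limma 0 passed (adjusted p 0.976 or above), and 7 had an unadjusted p under 0.05, or 6.8%, against 4.72% of all genes. Groups did not overlap for 15.5% of them, 9 lower and 7 higher in CKO, against 10.6% of all genes. The lists were drawn up with earlier results of these data known, which can itself raise such shares. They are therefore given as descriptions only. Of 13 measured FOXO factors and targets, 9 were below 0 and 4 above, with a median of -0.09. In this list 3 of the 13 genes had groups that did not overlap, all lower in CKO, against 5.01% of all genes. Txnip, an inhibitor of thioredoxin, read 12.02, 11.50 and 12.15 in CKO and 12.43, 12.92 and 13.11 in Control (-0.93, SE 0.26). Pik3ip1, an inhibitor of PI3K, read 5.49, 5.26 and 5.71 in CKO and 5.89, 6.82 and 6.81 in Control (-1.02, SE 0.30), and Cited2, a transcriptional coregulator, 8.15, 8.24 and 8.06 in CKO and 8.58, 8.72 and 9.91 in Control (-0.92, SE 0.36). Without C, Cited2 was at -0.50. None of the 3 passed, and the list's median ran from -0.23 without E to -0.02 without B.

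Among 20 measured p53 targets and regulators, 9 were above 0 and 11 below, with a median of -0.04, which ran from -0.08 without A to 0.10 without B. Only Phlda3, an inhibitor of Akt signalling, had groups that did not overlap, at -0.60 (SE 0.20). Proliferation genes had 8 of 14 above 0 and a median of 0.17, which ran from 0.0023 without E to 0.25 without F. The replication licensing genes Mcm2 and Mcm3 lay higher in CKO with no overlap, by 0.54 (SE 0.20) and 0.51 (SE 0.26, and 0.25 without E), and Mki67, Ccnb1 and Bub1 were among the 6 not measured. The cyclins and kinases that the inhibitors bind had 3 of 9 above 0 and a median of -0.11, which ran from -0.27 without F to -0.03 without B. Cdk7 lay 0.42 higher (SE 0.16) and Mnat1 0.61 lower on the log2 scale (-0.61, SE 0.35), 2 subunits of the kinase that activates other cyclin-dependent kinases. Cdk7 was dim, at 4.84, 4.95 and 4.64 on A, B and C. On A a Cdkn2a probe at 5.11, and on C a Cdkn2c probe at 5.06, were not above background (detection p 0.052 and 0.060). Cdk7 was thus kept mainly through the CKO arrays, where it was higher, so its gap between the groups carries no weight. Without D, Mnat1 was at -0.20.

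RB and E2F genes had 6 of 13 above 0 and a median of -0.15 (-0.21 without C to -0.07 without A), with E2f4 at 0.66 (SE 0.30, and 0.36 without D), E2f5 at -0.40 (SE 0.17) and Lin37, of the DREAM complex, at -0.31 (SE 0.16). Genes for ubiquitination of the inhibitors had 5 of 11 above 0 and a median of -0.0085 (-0.08 without A to 0.06 without B). Of these, Ddb1 and Cul4a, parts of one ubiquitin ligase, were higher in CKO with no overlap, by 0.35 (SE 0.17) and 0.24 (SE 0.17). PP2A subunits and Gak, partners of the cyclin G proteins, had 5 of 9 above 0 and a median of 0.0016 (-0.04 without E to 0.17 without D), and the catalytic subunit Ppp2ca lay at 0.15 (SE 0.15, and 0.08 without E). Polycomb regulators of the Ink4 locus had 6 of 14 above 0 and a median of -0.14 (-0.18 without B to -0.06 without E), with Kdm6b, a demethylase, at -0.47 (SE 0.19) and Ezh1, a methyltransferase, at -0.51 (SE 0.25, and -0.24 without D).

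**Figure D4:**
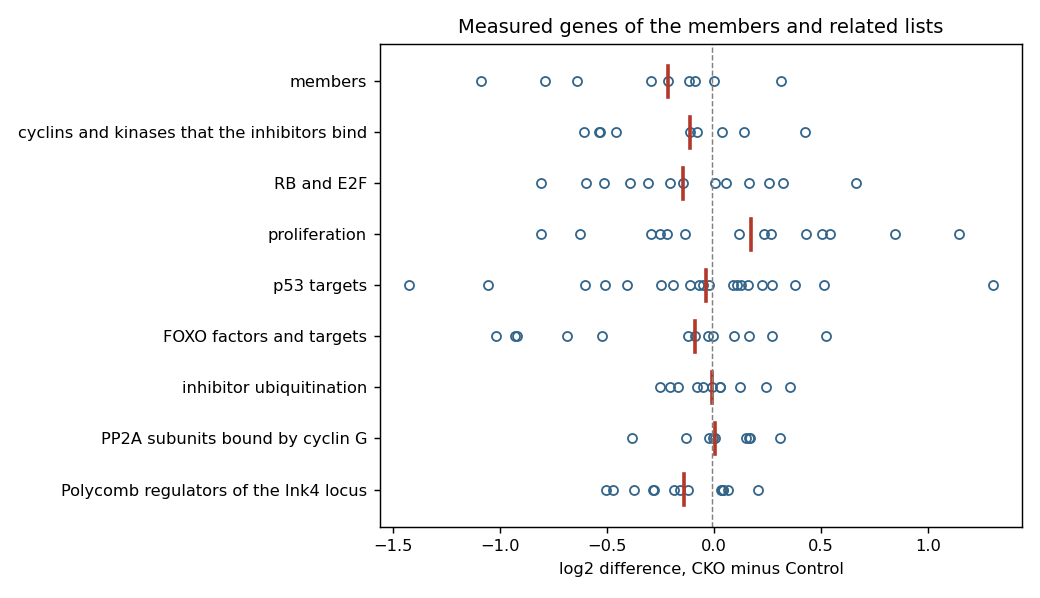
Log2 difference, CKO minus Control, of each measured member and of each measured gene of 8 related lists (circles), with the median of each list (bar) and of all 11940 genes (dashed line). The medians of the lists lie between -0.15 and 0.17, and that of the members at -0.22.

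For every list of markers of other cells, the summed signals overlapped between CKO and Control, though single arrays differed widely. Mesothelial markers summed to 1395 on D, 269.7 on E and 237.3 on F, and to 393.8 to 696.9 in Control. Erythroid markers summed to 4296 to 22128 in CKO, highest on F, and to 3436 to 14575 in Control. The 3 measured embryo markers all had a difference above 0, with overlapping groups. Glandular markers summed to 739.3 to 4549 in CKO and 840.0 to 4917 in Control. Stroma markers, 8 of 12 measured, had a summed linear signal of 1109 to 6366 in CKO and 2176 to 2910 in Control, so CKO arrays lay on both sides. Dcn made up most of this sum on each array, and its own difference was -0.15, so the sums say little about the other stroma markers. Of the 8 markers, 6 had a difference above 0, with a median of 0.38 and a range from -0.27 for Lum to 1.23 for Col1a1. Hoxa11 and Hand2 were above background on no array. Endothelial markers, 5 of 7 measured and without Tie1, summed to 281.9 to 1059 in CKO and 450.2 to 504.0 in Control. All 5 had a difference above 0, with a median of 0.64, and overlapping groups. Their mean deviation was 0.32, 1.16 and -0.70 on D, E and F, and -0.16, -0.44 and -0.18 on A, B and C, so D and E were high and F was the lowest. No marker of these lists passed, and their part in the members' values was not tested. For macrophages and dendritic cells, 4 of 8 markers were measured, with sums of 535.1 to 1186 in CKO and 464.7 to 783.0 in Control, and Ptprc, Itgam and Itgax were above background on no array.

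**Figure D5:**
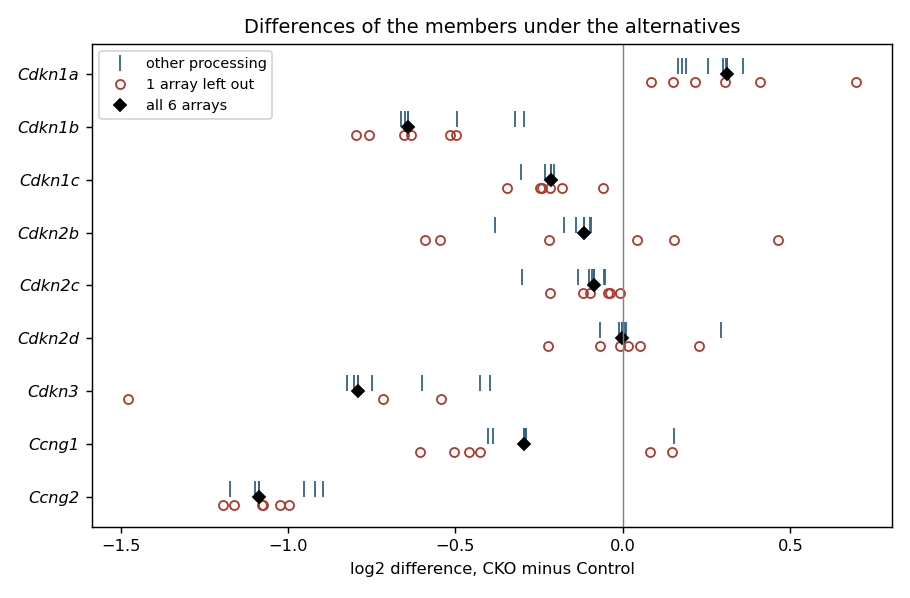
Log2 difference, CKO minus Control, of each measured member with all 6 arrays (diamond), with 1 array left out (circles) and under other processing (ticks). Ccng1, Cdkn2b and Cdkn2d cross 0. Ccng2 lies between -1.19 and -0.90, but it was chosen by its signal on these arrays, which favours such a narrow range.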

How the data were processed

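Bead arrays of 3 CKO and 3 Control samples were used. The deposited tables from the scanner hold, per the file headers, the mean linear intensity of each probe's beads, its standard error, the number of beads and a detection p-value. Judged from their values, which are all positive with medians that differ between arrays, these intensities had not been background-subtracted or normalised. A deposited table of processed intensity values, with an equal median of 6.4 on each array, served as an alternative. How it was computed is not stated in the labels or headers. The number of arrays limits the precision.

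The neqc function (limma 3.58.1, R 4.3.3) inferred the negative controls from the detection p-values, corrected the deposited intensities for background, added 16, and applied quantile normalisation and log2. The added 16 shrinks differences of dim probes. Probes above background on at least 3 of 6 arrays were kept (17291), and the brightest stood for its gene (11940 genes). Of all 45281 probes on the array, 29370 were named through a RefSeq table by accession and 6953 by symbol. The other 8958, found there by neither, kept the symbol of the array's own annotation. Levels of different probes were not compared. CKO and Control were compared with two-sided moderated tests in limma (lmFit, eBayes). A gene passed at a Benjamini-Hochberg adjusted p under 0.05 over all genes, or over all probes where stated. The steps were tested on simulated data. Members, lists and tests were chosen with earlier results of these data known. From each list, up to 3 measured genes with the smallest p among those whose groups did not overlap were named, and the 5 genes most and least correlated with Ccng2 (3 for Cdkn1b), skipping clone names. Motifs were chosen after the array values were seen. Alternatives changed background correction, normalisation, filter, probe choice and variance model, weighted arrays, or left out each array.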

Additional observations from a re-analysis of the deposited data

How the results depend on the processing

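Of the 8 measured members other than Ccng2, 5 kept the sign of their difference under every alternative that tested them, and none passed under any, with adjusted p-values of 0.316 or above. Ccng1 turned to 0.15 with array weights, and spanned -0.60 to 0.15 when each array was dropped in turn. Cdkn2d, at -0.0016 in the main setting, turned to 0.0074 under normexp without controls, 0.0081 without background correction and 0.29 under array weights; dropping each array gave -0.22 to 0.23. Dropping each array gave Cdkn2b values from -0.59 to 0.46. The strict filter left out Cdkn1b, Cdkn2b and Cdkn3, and Cdkn3 was also above background on too few arrays without B, C or F.

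Beside the 2 genes that passed as higher in CKO, 1 gene passed under each of normexp without controls, no background correction, median scaling, cyclic loess and the deposited values. Under no filter and the strict filter 0 passed, under array weights 5, and 0 to 1 when each array was dropped. The 3 probes that passed as higher became 0 to 2 when each array was dropped. Genes and probes lower in CKO were 0 throughout by limma, where 239 genes and 344 probes had an unadjusted p under 0.05 in the main setting. Leaving out an array leaves 5 samples; the no filter setting shares the adjustment among more genes (28891). Otherwise the cause was not tested. The counts and named genes of the lists and the dimmer Ccng1 probes with arrays left out were added after seeing the data. Low signal over background limits Cdkn1b, Cdkn2b on its dimmer arrays, Cdkn3, the dimmer Cdkn2c probe and all of Cdkn2a. No paired analysis was possible because the replicate letters are not shared between the groups.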
